A study of Mus musculus with 48 samples.

Results

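The 10 genes described here encode an amino acid transporter, enzymes of serine synthesis and mitochondrial one-carbon metabolism, asparagine synthetase, a lipoprotein receptor and a small stress-response protein, and all are known targets of the transcription factor ATF4. They were taken as a named list of symbols from the 47643 identifiers in each count file, and all 10 were found: Slc7a5 (ENSMUSG00000040010), Slc3a2 (ENSMUSG00000010095), Shmt2 (ENSMUSG00000025403), Mthfd2 (ENSMUSG00000005667), Phgdh (ENSMUSG00000053398), Psat1 (ENSMUSG00000024640), Psph (ENSMUSG00000029446), Asns (ENSMUSG00000029752), Vldlr (ENSMUSG00000024924) and Nupr1 (ENSMUSG00000030717). Messenger RNA was measured in organoids, three-dimensional cultures grown in Matrigel from the submandibular salivary gland of C57BL/6 mice aged 8 to 12 weeks, none of them labelled as carrying a genetic change. Every culture, controls included, was kept in medium with EGF, FGF2, insulin, dexamethasone, the kinase inhibitor Y27632 and Wnt3a- and R-spondin1-conditioned medium, and medium was refreshed in all of them after the irradiation step. On culture day 5 organoids received 4, 7 or 15 Gy of photons, or 4, 7 or 15 Gy of protons in the plateau of the beam, or were left unirradiated, and they were collected 2 or 6 days later. Organoids of 3 mice in each of the 16 groups gave 48 libraries. The submitters state that the photon and the proton exposures took place on separate days, with a control for each type and time point. A difference between the photon and the proton series, in level or in effect of dose, cannot be told apart from the day of the experiment.

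ATF4 is translated when the initiation factor eIF2 is phosphorylated, as happens when amino acids run short or unfolded protein accumulates, and it then switches on genes that bring in and make amino acids. Slc7a5 (LAT1) and Slc3a2 (CD98 heavy chain) pair at the cell surface as an exchanger of large neutral amino acids. Phgdh, Psat1 and Psph carry out the successive steps from a glycolytic intermediate to serine, and Shmt2 and Mthfd2 pass serine carbon into the folate cycle of mitochondria, which feeds nucleotide synthesis.

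ATF4 acts with C/EBP proteins at a composite DNA element, so the region around the start of each gene was searched for the letters TGATGNAA on both strands; this motif overlaps no other that was searched. The RefSeq promoter table (build GRCm38.p6, not the build named in the submitters' processing notes) has windows of 250 bases before to 50 after the start for 9 of the 10 genes, 11 windows in all, and Slc7a5 is named only. The motif was in 3 of these 11 windows and in 3.97% of all 32851 windows of the table; a match describes the letters and not a bound site. The 3 windows that hold it are shown, on the strand of the gene, with the match in capitals. In Asns (chr6:7693160-7693459, minus strand) the match begins 23 bases before the start, in Nupr1 (chr7:126625421-126625720, minus strand) 110 bases before it, and in the second of the Vldlr windows (chr19:27216770-27217069, plus strand) 200 bases before it.
Asns: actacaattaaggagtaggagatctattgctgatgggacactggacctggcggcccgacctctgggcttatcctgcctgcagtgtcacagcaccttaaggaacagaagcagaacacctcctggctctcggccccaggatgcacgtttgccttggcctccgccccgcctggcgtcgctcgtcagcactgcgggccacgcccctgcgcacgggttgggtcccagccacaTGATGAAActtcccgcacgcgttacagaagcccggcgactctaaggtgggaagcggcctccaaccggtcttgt
Nupr1: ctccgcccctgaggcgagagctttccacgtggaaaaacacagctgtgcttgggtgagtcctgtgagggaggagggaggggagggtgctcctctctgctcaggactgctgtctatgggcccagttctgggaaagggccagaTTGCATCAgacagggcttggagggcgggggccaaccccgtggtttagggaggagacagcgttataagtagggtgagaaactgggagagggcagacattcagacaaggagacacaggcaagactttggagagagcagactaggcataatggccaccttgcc
Vldlr: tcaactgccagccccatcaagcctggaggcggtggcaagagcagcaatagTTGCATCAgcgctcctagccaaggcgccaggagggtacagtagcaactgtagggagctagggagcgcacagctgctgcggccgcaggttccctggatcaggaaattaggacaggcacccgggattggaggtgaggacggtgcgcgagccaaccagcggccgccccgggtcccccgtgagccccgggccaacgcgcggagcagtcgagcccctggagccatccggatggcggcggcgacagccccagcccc

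The libraries held 314409 to 4745719 counts (median 2952939). The shallowest was the photon 4 Gy day 6 library of mouse 3, and the next had 1311666; with and without the shallow library none of the 10 genes passed the test at photon 4 Gy on day 6. Levels are given as CPM, counts scaled to a common library depth, and all 10 genes passed the filter on low counts in every comparison; Phgdh was the scarcest, with a median of 29.5 counts per library and 0 counts in the shallow library. Epcam and Cdh1, which mark epithelium, together stood at 1563 to 2372 CPM in every library. Markers of fibroblasts summed to 0 to 3.12 CPM, of endothelium to 0 to 2.06 CPM and of immune cells to 0.656 to 6.80 CPM, with Cdh5 and Cd3e at 0 in all 48 libraries. Acinar markers summed to 0.904 to 25.3 CPM, with Aqp5 counted in all 48 libraries and Prol1 and Smgc at 0 in 45 each. Luminal duct markers summed to 1306 to 3430.1 CPM and basal duct markers to 2473 to 16333 CPM. Those of myoepithelium summed to 0.334 to 15.1 CPM. These are bulk samples, in which fewer cells of a type and less RNA per cell cannot be told apart.

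**Figure D1:**
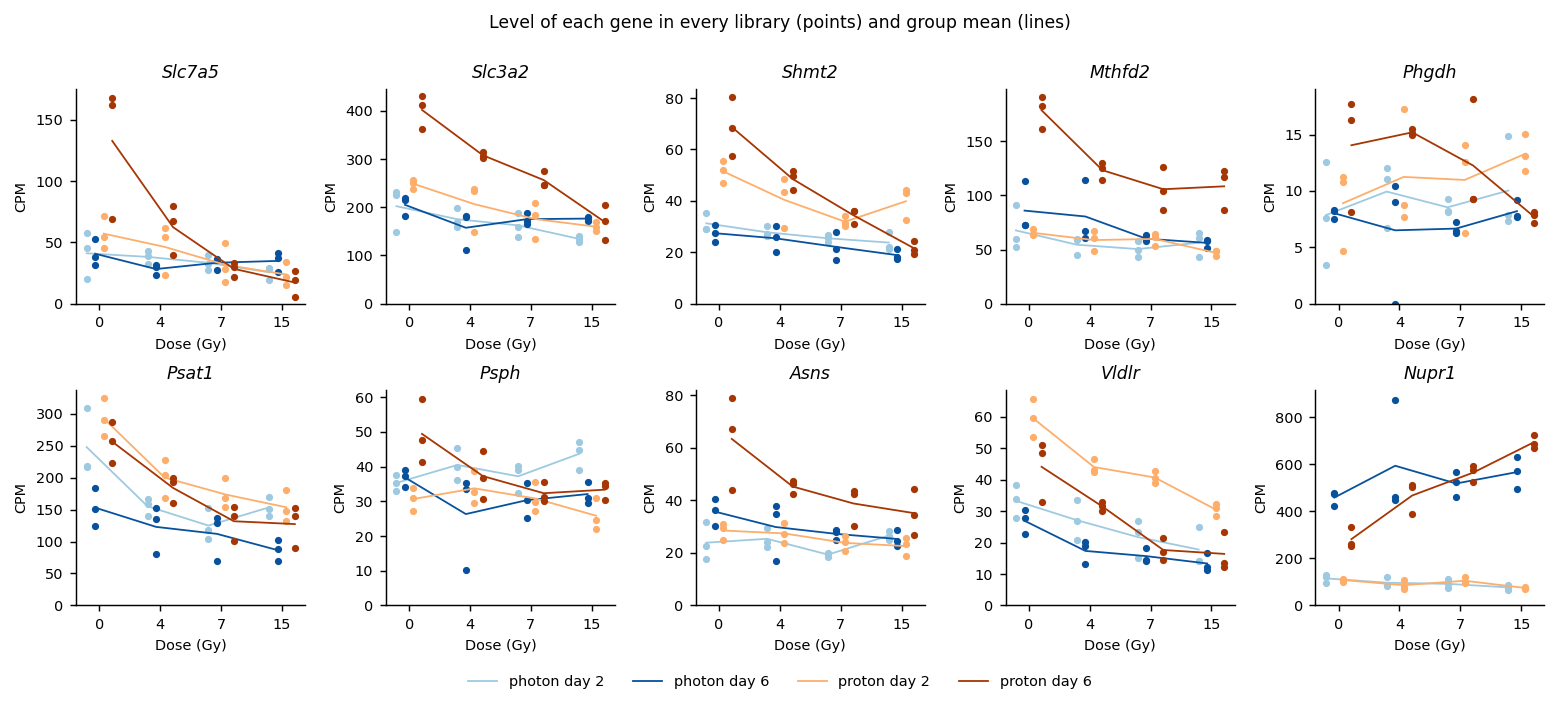
Level of each gene in CPM (vertical axes, from 0) against dose in Gy as evenly spaced categories, with 1 point per library, colour for radiation type and day, and lines through the means of 3 libraries. The day 6 proton controls are the highest group of Slc7a5, Slc3a2, Shmt2, Mthfd2, Psph and Asns by mean, and Slc7a5 falls there from 69.3 to 167 CPM in controls to 5.83 to 26.5 CPM at 15 Gy.

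Across the 12 comparisons of an irradiated group with its own control, these genes changed most often 6 days after protons. The 10 genes were chosen with earlier results of these data known, so their counts beside all genes are descriptions. At 15 Gy of protons on day 6, 8 of the 10 genes fell and 1, Nupr1, rose; 13.2% of the 10810 genes tested fell and 11.0% rose (edgeR quasi-likelihood test, adjusted p under 0.05). The median log2 fold change of the 10 genes was -0.95, beside -0.02 for all genes tested. At 7 Gy the counts were again 8 lower and 1 higher, against 6.60% and 5.49% of all genes, with a median of -0.75. At 4 Gy only Nupr1 passed the test, rising as 1.13% of all genes did, while 8 of the 10 estimates were negative and their median was -0.51. There 9 of the 10 genes had an unadjusted p under 0.05 by edgeR. DESeq2 called 2 of them, and edgeR with only the 2 groups compared called 5. Between 15 and 4 Gy of protons on day 6, 4 of the genes fell further and Nupr1 rose further, against 4.07% and 2.63% of all genes.

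Proton changes were fewer on day 2, with 5 genes lower at 15 Gy (4.37% of all genes fell), 2 lower at 7 Gy (1.32%) and none at 4 Gy, where 1.05% of all genes passed. With photons, Psat1 fell on day 2 at 7 Gy, where 1.14% of all genes fell, and at 15 Gy, where 2.38% did. Vldlr was the only one of the 10 to pass on day 6, at 15 Gy, where 2.77% of all genes fell. At 15 Gy on day 2 the median log2 fold change of the 10 genes was -0.50 with photons and -0.52 with protons. In each of these 2 comparisons 6 of the genes had an unadjusted p under 0.05 by edgeR. With mouse as a block, 4 passed there with photons and 6 with protons. No gene of the 10 passed edgeR's test at photon 4 Gy on day 2 (0.661% of all genes passed), at photon 4 Gy on day 6 (1.23%) or at photon 7 Gy on day 6 (2.61%). At an unadjusted p under 0.05 those 3 comparisons and proton 4 Gy on day 2 held 1, 2, 3 and 2 of the genes, and DESeq2 called 1, 0, 0 and 0. The comparisons of 15 with 4 Gy also gave no call for photons on day 2 (0.263% of all genes passed), photons on day 6 (0.141%) and protons on day 2 (0.123%), with 2, 3 and 6 genes at an unadjusted p under 0.05 and none by DESeq2.

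**Figure D2:**
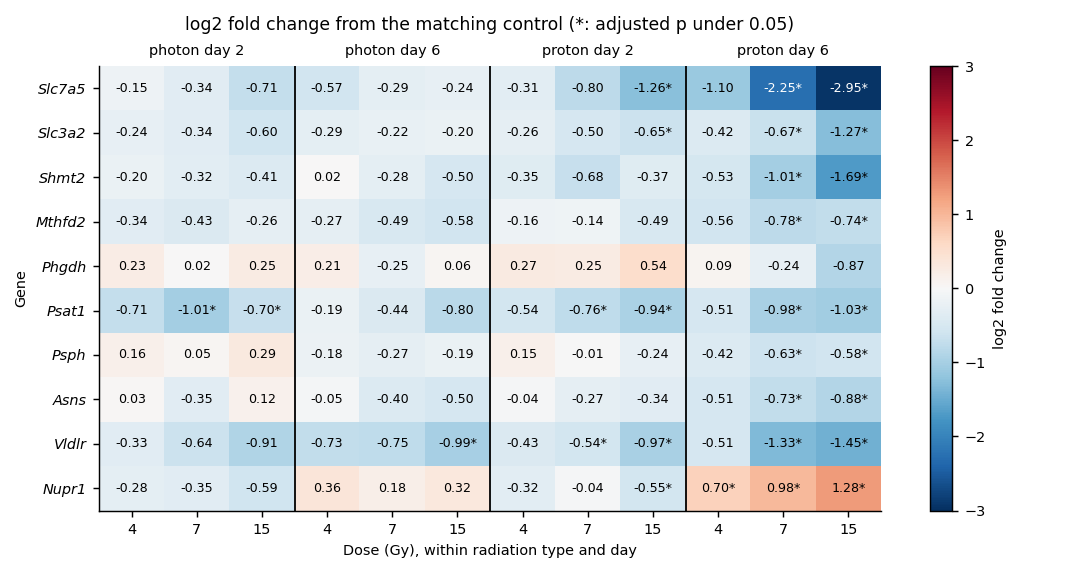
Log2 fold change of each gene (rows) from its matching control at 4, 7 and 15 Gy (columns) within radiation type and day, with colour from blue (lower) to red (higher) and a star at an adjusted p under 0.05. The stars gather in the day 6 proton columns at 7 and 15 Gy, where every gene but Phgdh has one, and Nupr1 is the only row with a red star.

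Both chains of the transporter fell after protons, and Slc7a5 had the largest fall of the 10 genes at 7 and 15 Gy on day 6. Slc7a5, the light chain that carries the amino acid, stood at 69.3, 167 and 162 CPM in the day 6 proton controls of mouse 1, 2 and 3. It was at 39.8, 67.9 and 79.6 CPM after 4 Gy, at 33.2, 22.0 and 30.1 CPM after 7 Gy and at 26.5, 19.5 and 5.83 CPM after 15 Gy. The 7 and 15 Gy libraries lay below every control, the 4 Gy libraries overlapped the control of mouse 1, and that control was far below the other two. Its log2 fold change was -2.95 ± 0.39 (SE) at 15 Gy, a 7.71-fold lower level (adjusted p = 3.95e-05), -2.25 ± 0.37 at 7 Gy (adjusted p = 0.000504) and -1.10 ± 0.34 at 4 Gy, which did not pass (adjusted p = 0.152). From 4 to 15 Gy it fell by 1.84 on the log2 scale (adjusted p = 0.0119); without the 4 Gy library of mouse 3 the adjusted p of that step was 0.0541. On day 2 after protons Slc7a5 was at 54.7, 45.1 and 71.7 CPM in controls and 34.2, 21.9 and 15.4 CPM at 15 Gy, with no overlap. That change of -1.26 ± 0.36 passed (adjusted p = 0.0345), but not without the control of mouse 1 or 3 or the 15 Gy library of mouse 2 or 3, where the adjusted p reached 0.146, nor by DESeq2 (adjusted p = 0.0931). Photons gave no call: on day 6 the controls at 37.8, 31.6 and 52.9 CPM overlapped the 15 Gy libraries at 41.1, 26.2 and 37.5 CPM (log2 fold change -0.24 ± 0.21, adjusted p = 0.622). On day 2 the photon controls were at 45.1, 57.9 and 20.4 CPM and the 15 Gy libraries at 28.4, 19.7 and 28.9 CPM. Those groups overlapped only through the control of mouse 3, which was far below the other controls.

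Slc3a2, the heavy chain that takes the pair to the membrane, was at 363, 412 and 430.1 CPM in the day 6 proton controls. After 4 Gy it was at 315, 306 and 302 CPM, after 7 Gy at 246, 246 and 276 CPM and after 15 Gy at 171, 205 and 133 CPM. No library of any of these doses reached the control range, and the 4 dose groups did not overlap one another. It fell by 0.67 on the log2 scale at 7 Gy (adjusted p = 0.00296) and by 1.27 ± 0.14 at 15 Gy (adjusted p = 4.21e-06), and by 0.85 from 4 to 15 Gy (adjusted p = 0.0023). The 4 Gy change of -0.42 ± 0.13 did not pass although its libraries lay below all controls (adjusted p = 0.17). On day 2 after 15 Gy of protons Slc3a2 was at 169, 151 and 159 CPM against 251, 239 and 256 CPM in controls. The groups were apart and the change of -0.65 ± 0.17 passed (adjusted p = 0.0252), though not with any single control or 15 Gy library left out (adjusted p up to 0.118). After 15 Gy of photons Slc3a2 was at 141, 135 and 128 CPM on day 2 against 233, 226 and 148 CPM, which were likewise apart. That change of -0.60 ± 0.17 had an adjusted p of 0.0552, and 0.0466 with mouse as a block; the same block also brought the 7 Gy proton change on day 2 to an adjusted p of 0.043 from 0.156.

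Of the 3 serine synthesis enzymes, Psat1 changed and Phgdh did not pass in any comparison. Psat1, the phosphoserine aminotransferase, fell at 7 and 15 Gy in every comparison with a control except those of photons on day 6. In the day 2 photon series it was at 218, 216 and 309 CPM in controls, 152, 118 and 105 CPM at 7 Gy and 169.7, 151 and 140.0 CPM at 15 Gy. Irradiated libraries lay below all controls, and the 15 Gy group was not lower than the 7 Gy group. The log2 fold changes were -1.01 ± 0.18 at 7 Gy (adjusted p = 0.00679) and -0.70 ± 0.18 at 15 Gy (adjusted p = 0.0382). The 15 Gy call was lost without the library of any mouse at 15 Gy, of mouse 1 or 3 at 4 Gy or of mouse 2 at 7 Gy, with an adjusted p up to 0.132. With only the 2 groups compared neither call passed (adjusted p = 0.0717 and 0.127). In the day 2 proton series Psat1 was at 324, 264 and 289.5 CPM in controls and at 147, 133 and 181 CPM at 15 Gy, a change of -0.94 ± 0.15 (adjusted p = 0.000784) between groups that did not overlap. At 7 Gy of protons it fell by 0.76 (adjusted p = 0.0116), a call lost without the control of mouse 1 or the 7 Gy library of mouse 3 (adjusted p up to 0.0697). With mouse as a block the 4 Gy change of -0.55 ± 0.13 also passed (adjusted p = 0.0385), from 0.117 without the block.

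After protons on day 6 Psat1 was at 257, 288 and 223 CPM in controls, 193, 159.6 and 199 CPM at 4 Gy, 141, 100.5 and 154 CPM at 7 Gy and 89.2, 152 and 141 CPM at 15 Gy. All irradiated libraries were below the controls, and those at 7 and 15 Gy overlapped each other. Psat1 fell by 0.98 at 7 Gy (adjusted p = 0.00154) and by 1.03 ± 0.18 at 15 Gy (adjusted p = 0.00059) on the log2 scale. After 15 Gy of photons on day 6 its libraries at 87.5, 102 and 69.6 CPM lay below the controls at 151, 183 and 124 CPM. The change of -0.80 ± 0.24 did not pass (adjusted p = 0.0733), and with mouse as a block it was -0.81 ± 0.15 (adjusted p = 0.00527).

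Phgdh, the first enzyme of the path, was at 8.09, 16.3 and 17.7 CPM in the day 6 proton controls and at 7.83, 8.13 and 7.20 CPM at 15 Gy. The control of mouse 1 lay within the 15 Gy range, and the change of -0.87 ± 0.32 did not pass (adjusted p = 0.0591). On day 2 its estimate at 15 Gy of protons was positive, 0.54 ± 0.35 (adjusted p = 0.396). Psph, the phosphatase that releases serine, was at 47.5, 59.5 and 41.2 CPM in the day 6 proton controls. Its libraries were at 30.1, 35.6 and 31.3 CPM after 7 Gy and at 34.4, 30.4 and 35.3 CPM after 15 Gy, all below the controls. The falls of 0.63 at 7 Gy (adjusted p = 0.0273) and 0.58 at 15 Gy (adjusted p = 0.0247) depended on the libraries and settings. The first was lost without the control of mouse 1 or 2 or the 7 Gy library of mouse 1 or 3 (adjusted p up to 0.166), the second without the control or the 15 Gy library of mouse 2 (adjusted p up to 0.149). Library size alone ended both calls (adjusted p = 0.115 and 0.101), and at 15 Gy so did no filter (0.0506) and only the 2 groups compared (0.0654). After photons, and on day 2 after protons, Psph passed in no comparison, and its log2 fold changes lay between -0.27 and 0.29.

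The pair of mitochondrial enzymes differed in their dose pattern after protons. Shmt2, which takes the one-carbon unit from serine, was at 68.3, 80.5 and 57.4 CPM in the day 6 proton controls. It was at 49.7, 44.1 and 51.8 CPM after 4 Gy, 31.1, 36.2 and 35.9 CPM after 7 Gy and 19.3, 20.9 and 24.3 CPM after 15 Gy. The 4 dose groups did not overlap and each was lower than the one before. Shmt2 fell by 1.01 at 7 Gy (adjusted p = 0.000335), by 1.69 ± 0.17 at 15 Gy (3.24-fold lower, adjusted p = 1.37e-06) and by 1.17 from 4 to 15 Gy (adjusted p = 0.000989), and the 4 Gy change of -0.53 ± 0.15 did not pass (adjusted p = 0.121). On day 2 after protons it was at 55.5, 46.97 and 51.98 CPM in controls, 31.4, 30.3 and 34.0 CPM at 7 Gy and 44.1, 43.04 and 32.5 CPM at 15 Gy. All were below the controls but none passed, with adjusted p of 0.068 at 7 Gy and 0.239 at 15 Gy.

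Mthfd2, the next enzyme, was at 183, 191 and 162 CPM in the day 6 proton controls, 115, 130.4 and 125 CPM at 4 Gy, 105, 86.3 and 127 CPM at 7 Gy and 86.2, 122 and 117 CPM at 15 Gy. The irradiated libraries lay below all controls and overlapped one another. Its falls of 0.78 ± 0.15 at 7 Gy (adjusted p = 0.0022) and 0.74 ± 0.15 at 15 Gy (adjusted p = 0.00168) were of like size, and the step from 4 to 15 Gy was -0.18 ± 0.15 (adjusted p = 0.501). After 15 Gy of protons on day 2 Mthfd2 was at 48.6, 43.7 and 48.7 CPM against 68.8, 64.4 and 63.4 CPM in controls. The change of -0.49 ± 0.15 between these separate groups had an adjusted p of 0.0507, and 0.0386 with mouse as a block.

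Asns, which makes asparagine, was at 44, 78.8 and 67.3 CPM in the day 6 proton controls, 43.7, 30.1 and 42.6 CPM at 7 Gy and 26.8, 44.2 and 34.3 CPM at 15 Gy. The control of mouse 1 was close to the highest irradiated libraries, and at 15 Gy the groups overlapped through its mouse 2 library. Asns fell by 0.73 ± 0.21 at 7 Gy (adjusted p = 0.0316) and by 0.88 ± 0.22 at 15 Gy (adjusted p = 0.00656). Without the control of mouse 2 the adjusted p at 15 Gy was 0.0518. The 7 Gy call was lost without the control or the 7 Gy library of mouse 2 or 3 (adjusted p up to 0.185), with library size alone, and with mouse as a block (adjusted p = 0.0506). It passed in no photon comparison of dose and in none on day 2, where its 15 Gy estimates were 0.12 ± 0.20 after photons and -0.34 ± 0.18 after protons.

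Vldlr, the receptor for very low density lipoprotein, fell after protons on both days and after photons on day 6. On day 6 of the proton series it was at 51.1, 48.4 and 32.9 CPM in controls, 30.0, 31.6 and 32.9 CPM at 4 Gy, 14.3, 17.1 and 21.5 CPM at 7 Gy and 13.6, 23.3 and 12.3 CPM at 15 Gy. The 7 and 15 Gy libraries were below every control and every 4 Gy library. It fell by 1.33 at 7 Gy (adjusted p = 0.000751), by 1.45 ± 0.23 at 15 Gy (adjusted p = 0.000224) and by 0.94 from 4 to 15 Gy (adjusted p = 0.0227); the last was lost without any 4 Gy library or the 15 Gy library of mouse 3 (adjusted p up to 0.104) and with only the 2 groups compared (adjusted p = 0.0624). Its day 2 proton controls at 59.5, 65.8 and 53.5 CPM lay above the matching 15 Gy libraries at 32.3, 30.9 and 28.4 CPM (-0.97 ± 0.14, adjusted p = 0.000302). At 7 Gy it fell by 0.54 (adjusted p = 0.0488), a call that 11 of the 12 single-library omissions ended, all but that of the 4 Gy library of mouse 2 (adjusted p up to 0.211). It was also lost with library size alone (adjusted p = 0.0538), DESeq2 (0.0953), no filter on low counts (0.0938) and only the 2 groups compared (0.113).

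After photons Vldlr was at 22.7, 30.3 and 27.8 CPM in day 6 controls and at 12.4, 11.1 and 16.6 CPM at 15 Gy. The groups were apart and the gene fell by 0.99 ± 0.20 (adjusted p = 0.00946), with an adjusted p of 0.0821 without the 15 Gy library of mouse 2. At 7 Gy its libraries at 14.1, 14.6 and 18.4 CPM were also below the controls (-0.75 ± 0.20, adjusted p = 0.0663, and 0.0479 with mouse as a block). After 15 Gy of photons on day 2 it was at 14.2, 25.1 and 14.1 CPM against 33.9, 38.4 and 27.7 CPM, with an adjusted p of 0.0692 and of 0.0176 with the block.

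Nupr1, a small chromatin protein induced under stress, went the other way on day 6 after protons. It was at 332, 253 and 261 CPM in controls, 502, 389 and 512 CPM at 4 Gy, 576, 593 and 524 CPM at 7 Gy and 671, 726 and 685 CPM at 15 Gy. The 4 groups did not overlap, and every higher dose was above the one before. Nupr1 rose by 0.70 at 4 Gy (adjusted p = 0.00686), by 0.98 at 7 Gy (adjusted p = 8.5e-05) and by 1.28 ± 0.13 at 15 Gy (2.43-fold, adjusted p = 2.87e-06). It rose by 0.58 from 4 to 15 Gy (adjusted p = 0.0171). The 4 Gy call was lost without the control of mouse 2 or 3 or the 4 Gy library of mouse 3 (adjusted p up to 0.0732), and the step from 4 to 15 Gy without the 4 Gy library of mouse 2 (adjusted p = 0.0854) or with only the 2 groups compared (adjusted p = 0.0502).

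On day 2 Nupr1 was lower after 15 Gy of protons, at 71.04, 73.3 and 78.0 CPM against 101, 109 and 114 CPM in controls (-0.55 ± 0.16, adjusted p = 0.0364). That call was lost without any single control or 15 Gy library (adjusted p up to 0.134) and with library size alone. After 15 Gy of photons on day 2 it was at 66.7, 88.2 and 75.4 CPM against 96.7, 128 and 121 CPM, a change of -0.59 ± 0.19 (adjusted p = 0.098, and 0.046 with mouse as a block). On day 6 after photons it stood at 475, 421 and 480.0 CPM in controls and at 496, 573 and 632 CPM at 15 Gy. Those groups were apart, yet the change of 0.32 ± 0.22 did not pass (adjusted p = 0.506). The highest of all 48 libraries, at 874 CPM, was the shallow photon 4 Gy library of mouse 3.

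The proton and photon effects of dose were compared in fits of the 24 libraries of a day, each effect taken from its own controls. At 15 Gy on day 6 the proton effect was lower for 3 of the 10 genes and higher for 1, against 1.86% and 2.56% of the 11310 genes tested. Slc7a5 differed by -2.66 ± 0.49 on the log2 scale (adjusted p = 0.00926), from a mean of 40.8 CPM in photon controls and 34.9 CPM at 15 Gy of photons, beside 133 and 17.3 CPM with protons. Slc3a2 differed by -1.02 ± 0.19 (adjusted p = 0.00929), Shmt2 by -1.15 ± 0.25 (adjusted p = 0.0151) and Nupr1 by 1.01 ± 0.28 (adjusted p = 0.0364). Mean Slc3a2 was 205 CPM in photon controls and 176 CPM at 15 Gy of photons, beside 402 and 170 CPM with protons. Mean Shmt2 was 27.4 and 18.9 CPM with photons, beside 68.7 and 21.5 CPM with protons. The controls of the 2 series were thus unlike, and these differences in effect cannot be told apart from the day of the experiment. The Shmt2 call was lost without the photon control of mouse 1 or the proton control of mouse 2 (adjusted p up to 0.0542). The Nupr1 call was lost in 10 of the 24 omissions (adjusted p up to 0.103): the photon controls of mouse 1 and 2, the photon 7 Gy library of mouse 2, all 3 photon 15 Gy libraries, and the proton control and 15 Gy libraries of mouse 2 and 3. For the remaining 6 genes the difference did not pass, with estimates from -0.11 ± 0.27 (Mthfd2) to -0.89 ± 0.42 (Phgdh).

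At 4 and 7 Gy on day 6, and at all doses on day 2, 0% of all genes passed this test of the difference. Among the 10 genes 0, 0 and 1 had an unadjusted p under 0.05 at 4, 7 and 15 Gy on day 2, and 1 and 4 at 4 and 7 Gy on day 6; DESeq2 called 1 gene at 7 Gy on day 6 and none elsewhere. The Slc7a5 estimate at 7 Gy on day 6 was -1.94 ± 0.47 (adjusted p = 0.205).

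The effect of a dose on day 6 was also set against its effect on day 2 within each series. For 15 Gy of protons 1 of the 10 genes was higher and 1 lower, beside 1.05% and 1.59% of 11177 genes. Shmt2 fell more on day 6, by a difference of -1.32 ± 0.25 (adjusted p = 0.00358). Nupr1 moved from a fall to a rise, a difference of 1.84 ± 0.21 (adjusted p = 5.42e-06). The Slc7a5 difference of -1.68 ± 0.59 did not pass (adjusted p = 0.115). At 7 Gy of protons the Nupr1 difference of 1.02 ± 0.21 was the only call (adjusted p = 0.0185; 0.107% of all genes were higher). It was lost without the day 2 control of mouse 2 or 3, the day 2 library at 7 Gy of mouse 1, the day 6 control of mouse 2 or the day 6 library at 7 Gy of mouse 1 or 2 (adjusted p up to 0.0778). At 4 Gy of protons Nupr1 differed by 1.03 ± 0.21 (adjusted p = 0.0528, and 0.0384 with mouse as a block), and edgeR called none of the 10 genes, with 2 at an unadjusted p under 0.05 and 1 by DESeq2 (0.0716% of all genes passed). For photons none passed at 4, 7 or 15 Gy, where 0%, 0% and 0.104% of all genes did, with 1, 0 and 2 genes at an unadjusted p under 0.05 and none by DESeq2.

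Control levels themselves moved with culture time in both series. From day 2 to day 6 the proton controls rose in 6 of the 10 genes and fell in none, where 8.28% of all genes rose and 9.15% fell. Over the same days the summed basal duct markers went from 10485 to 13779 CPM down to 5403 to 6564 CPM and the luminal markers from 1306 to 1542 CPM up to 1819 to 2219 CPM; their part in the result was not tested. Mthfd2 went from 68.8, 64.4 and 63.4 CPM to 183, 191 and 162 CPM (1.46 ± 0.15, adjusted p = 8.02e-08), and Asns from 31.0, 24.9 and 29.6 CPM to 44, 78.8 and 67.3 CPM (1.15 ± 0.21, adjusted p = 0.000197). No day 6 control overlapped a day 2 control of either gene. Nupr1 rose by 1.39 (adjusted p = 1.45e-07), Slc7a5 by 1.23 ± 0.38 (adjusted p = 0.0232), Slc3a2 by 0.70 (adjusted p = 0.00263) and Psph by 0.70 (adjusted p = 0.00658). Among the day 6 Slc7a5 controls that of mouse 1, at 69.3 CPM, lay within the day 2 range. The Slc7a5 call was lost by DESeq2 and without the day 2 control of mouse 1 or 2 or the day 6 control of mouse 2 or 3 (adjusted p up to 0.114), and the Psph call without the day 6 control of mouse 2 (adjusted p = 0.0646).

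In photon controls 1 gene rose and 1 fell over the same days, beside 6.25% and 8.48% of all genes. Their summed basal duct markers went from 7297 to 11415 CPM down to 3857 to 4602 CPM. The luminal markers were at 1637 to 2328 CPM on day 2 and 1874 to 2179 CPM on day 6. The part of these markers was not tested here either. Nupr1 rose by 1.96 ± 0.23 (adjusted p = 2.94e-06), from 96.7, 128 and 121 CPM to 475, 421 and 480.0 CPM. Psat1 fell by 0.74 (adjusted p = 0.029), from 218, 216 and 309 CPM to 151, 183 and 124 CPM, a call lost with library size alone and without the day 2 control of mouse 3 or the day 6 control of mouse 1 or 3 (adjusted p up to 0.129). Slc7a5 gave -0.06 ± 0.26 (adjusted p = 0.928) and Mthfd2 0.30 ± 0.23 (adjusted p = 0.436). Asns gave 0.52 ± 0.19 (adjusted p = 0.065, and 0.0432 with mouse as a block). A test of the difference between the 2 series' control changes, added after the data were seen, called none of the 10 genes by edgeR or by DESeq2, with 6 at an unadjusted p under 0.05 (0.199% of all genes passed). Its Slc7a5 estimate was 1.25 ± 0.50 (adjusted p = 0.386).

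**Figure D3:**
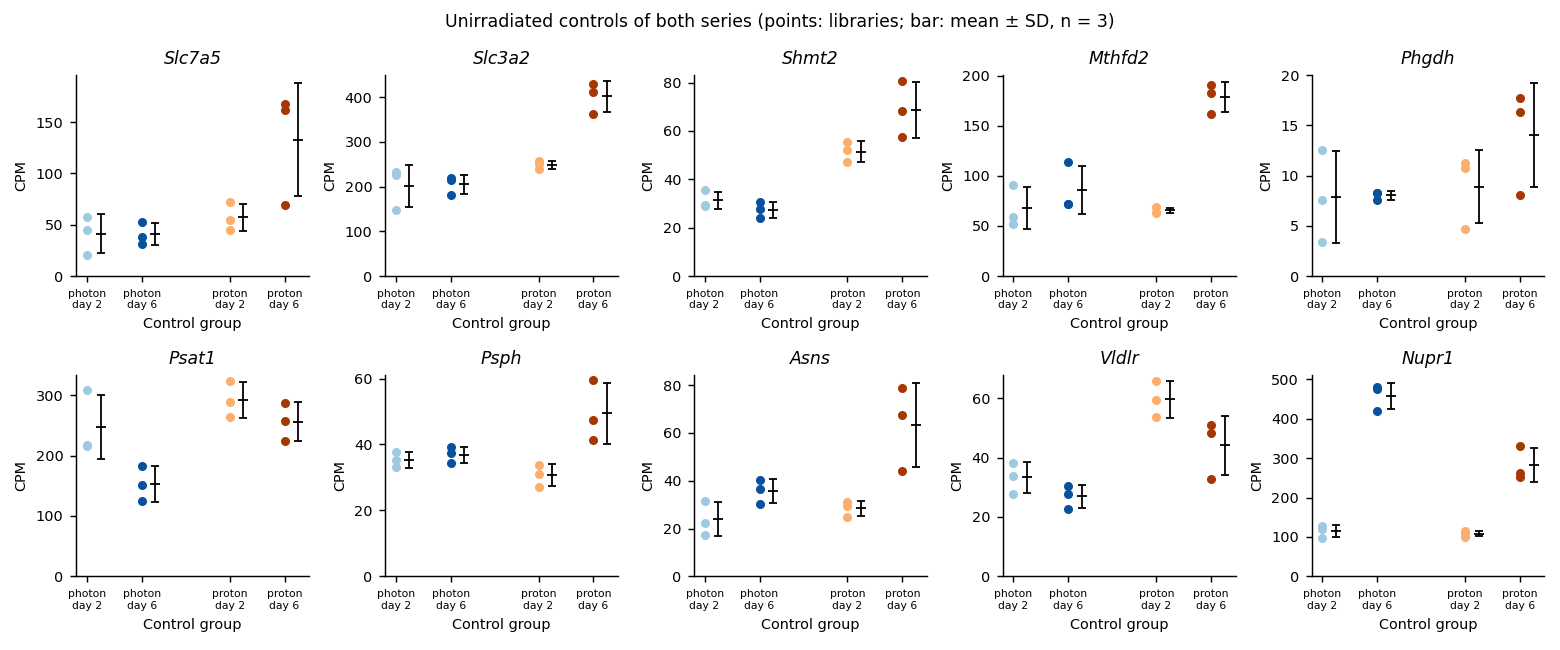
Level of each gene in CPM (vertical axes, from 0) in the unirradiated controls of the photon and proton series on day 2 and day 6, with 1 point per mouse and bars for the mean ± SD of 3 libraries. Mthfd2 is at 162 to 191 CPM in day 6 proton controls and at 114 CPM or less in every other control, and Nupr1 is higher on day 6 than on day 2 in both series.

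The change from day 2 to day 6 was also tested within the 15 Gy groups, a comparison added after the data were seen. With protons Mthfd2 rose by 1.21 (adjusted p = 7.43e-07), Asns by 0.63 (adjusted p = 0.0232) and Nupr1 by 3.23 ± 0.16 (adjusted p = 8.38e-15), while Shmt2 fell by 0.89 (adjusted p = 0.000363) and Vldlr by 0.90 (adjusted p = 0.00105); 14.5% of all genes rose and 14.7% fell. The Asns call was lost without the day 2 library of mouse 2 or 3 or the day 6 library of mouse 2 (adjusted p up to 0.155). Slc7a5 gave -0.45 ± 0.45 there (adjusted p = 0.48). With photons Nupr1 rose by 2.87 ± 0.23 (adjusted p = 1.46e-08) and Psat1 fell by 0.83 (adjusted p = 0.0126), beside 9.35% and 10.4% of all genes; the Psat1 call was lost without the day 2 library of mouse 1 or the day 6 library of mouse 3 (adjusted p up to 0.0702).

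Several measures moved with the day 6 proton result. The basal duct markers Krt5, Krt14 and Trp63 summed to 5403 to 6564 CPM in day 6 proton controls, 3271 to 3356 CPM at 7 Gy and 2505 to 3554 CPM at 15 Gy. Luminal duct markers summed to 1819 to 2219 CPM in those controls and 2531 to 3294 CPM at 15 Gy. The controls held 1812349 to 2244980 counts and the irradiated libraries 2514472 to 4220561. On day 6 of the photon series the basal duct markers summed to 3857 to 4602 CPM in controls. They summed to 2473 to 3411 CPM at 7 Gy and 2705 to 3029 CPM at 15 Gy, where 0 and 1 of the 10 genes were called. Luminal duct markers summed to 1874 to 2179 CPM in those photon controls and 2095 to 2254 CPM at 15 Gy of photons. With library size alone in place of the main scaling, the median of all genes moved by 0.19 at 7 Gy and 0.15 at 15 Gy of protons on day 6, and 7 and 8 of the 10 genes were still called. The part of the markers and of depth in the result was not tested.

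Other genes of the pathway were counted from lists, which were likewise chosen with earlier results of these data known. The list of serine, one-carbon and related amino acid metabolism had a median of -0.51 at 15 Gy of protons on day 6. Of its 20 genes tested 7 fell and none rose, where 13.2% of all genes fell and 11.0% rose. They were Aldh1l2, a mitochondrial folate dehydrogenase (-2.05 ± 0.30, adjusted p = 9.76e-05), Mthfd1l, which follows Mthfd2 in mitochondria (-1.24 ± 0.19, adjusted p = 0.000154), Cth, the cystathionine lyase (-1.43), Gpt2, an alanine aminotransferase (-1.001), Mat2a, which makes S-adenosylmethionine (-0.51), Pycr1 of proline synthesis (-0.85) and Slc25a32, the mitochondrial folate carrier (-1.01). Aldh1l2 also fell after photons, by 1.37 and 1.53 at 7 and 15 Gy on day 2 and by 1.01 at 15 Gy on day 6. Of 9 further amino acid transporters 4 fell and none rose, with a median of -0.47: the cystine carrier Slc7a11 (-0.67), the glutamine carrier Slc1a5 (-1.06), the glycine carrier Slc6a9 (-0.77) and Slc38a2 (-0.40). Of 13 genes for aminoacyl-tRNA synthetases and the tRNA exporter Xpot, Eprs (0.48) and Mars (0.61) rose and Xpot fell (-0.69), with a median of 0.27; these shares lie near those of all genes. At 15 Gy of photons on day 6 these 3 lists held 1, 0 and 0 calls, a fall of Aldh1l2, where 2.77% of all genes fell, with medians of -0.24, -0.12 and 0.05.

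Among 18 regulators of the same stress response, 3 rose at 15 Gy of protons on day 6 and none fell, with a median of 0.17. Of all genes 11.0% rose and 13.2% fell, so the share of regulators that rose lies near that of all genes. Ddit3 (CHOP), a transcription factor downstream of ATF4, had a mean of 22.6 ± 7.2 CPM in controls (SD, n = 3), 58.1 ± 11.3 CPM at 7 Gy and 59.3 ± 13.5 CPM at 15 Gy. It rose by 1.33 ± 0.22 (adjusted p = 0.000724) and 1.36 ± 0.23 (adjusted p = 0.00031). Its 15 Gy effect was higher on day 6 than on day 2 by 2.15 ± 0.39 (adjusted p = 0.00328). Eif2ak2, an eIF2 kinase that interferon also induces, rose by 2.46 ± 0.16 (adjusted p = 9.11e-09) and Gdf15, a secreted stress cytokine, by 0.74 ± 0.19 (adjusted p = 0.00782). Atf4 mRNA, whose level does not show how much of the protein is made, was at a mean of 1053 ± 122 CPM in those controls and 1277 ± 93.5 CPM at 15 Gy (0.26 ± 0.12, adjusted p = 0.116), and it passed in none of the 12 comparisons with a control.

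**Figure D4:**
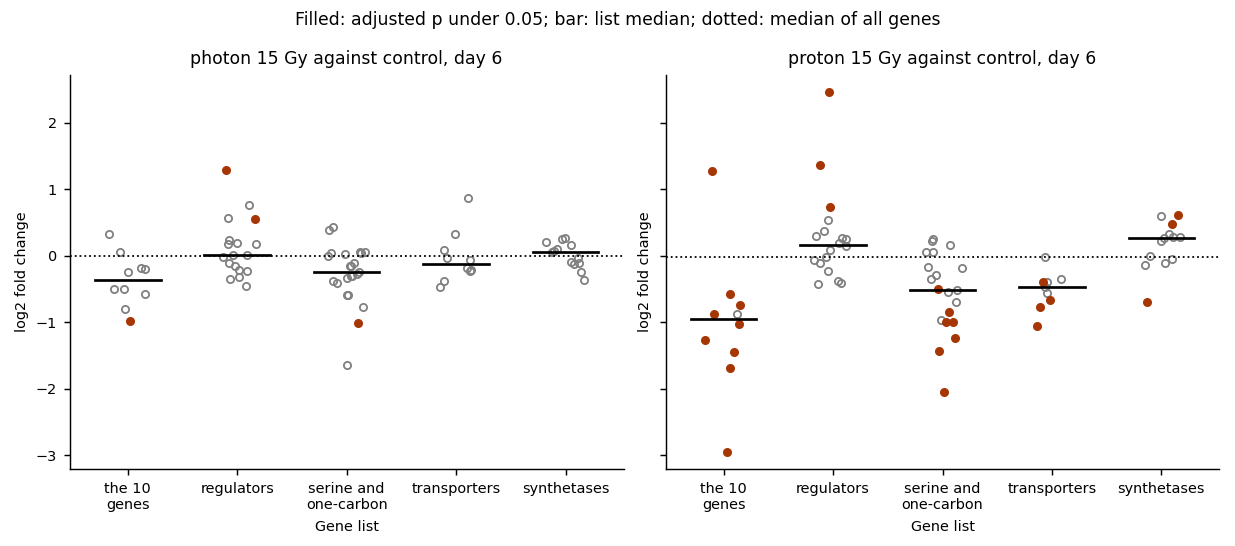
Log2 fold change (vertical axis) at 15 Gy against control on day 6, photons left and protons right, for the 10 genes and 4 further gene lists (horizontal axis). Each point is a gene, filled where the adjusted p is under 0.05, the bars are list medians and the dotted line is the median of all genes; after protons the median of the 10 genes is -0.95 and that of the synthetases 0.27.

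The genes whose pattern was most like the mean of the 10 over the 48 libraries, after removing the mean of each radiation type and day, were Mt2 (Pearson r = 0.91), Car12 (0.89), Pdk1 (0.88), Tns3 (0.88), Papss1 (0.88) and Epas1 (0.87), of 9806 genes compared. Libraries share controls and depth, so these values are descriptions. Each of the 10 genes was first scaled to the same spread over the libraries, and so had equal weight in the means used here. Mt2, a metallothionein, fell by 1.78 ± 0.18 at 15 Gy of protons on day 6 (adjusted p = 2.66e-06). By the same edgeR test it also fell at 15 Gy on day 2. Those changes were -0.76 ± 0.14 with photons (adjusted p = 0.00538) and -1.18 ± 0.13 with protons (adjusted p = 3.38e-05). At 4 Gy of protons it passed on day 2 (adjusted p = 0.00763) and day 6 (adjusted p = 0.0274). The change of -0.53 ± 0.18 at 15 Gy of photons on day 6 did not pass (adjusted p = 0.102). Within the 10 genes, the correlation of each with the mean of the other 9 was highest for Slc3a2 (0.83) and Shmt2 (0.79), low for Phgdh (0.22) and negative for Nupr1 (-0.62).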

How the data were processed

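Polyadenylated RNA (100 ng, integrity number above 9, per the labels' protocols) was made into QuantSeq 3′ libraries. The deposited files give raw read counts per Ensembl gene. GRCm39 and edgeR are named in the submitters' processing notes; aligner, counter and strand setting: not given in the sources used here. Summary lines for unassigned reads, 8.45% to 12.5% of all reads, were left out, and 4 deposited CPM tables were not used. Symbols matched 47224 of 47643 identifiers. The members and lists were chosen with earlier results of these data known.

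The test was that of edgeR 4.0.16 under R 4.3.3 (TMM scaling, filterByExpr, quasi-likelihood F test, Benjamini-Hochberg adjustment over all genes tested, threshold 0.05). Fits held the 12 libraries of a radiation type and day, or 24 for differences between days or radiation types. SE is the log2 fold change over the root of F. Printed CPM are scaled over all 48 libraries. All members and the 6 genes of highest likeness with at least 5 CPM are named; of the list genes, called ones may be. Alternatives were library size alone, DESeq2 1.42.0, no filter, only the 2 groups compared, mouse as a block, and each library left out. Same-numbered samples are 1 mouse per the labels within a radiation type; their deviations correlated at 0.08 in 3 of the 4 sets and at -0.03 in day 6 protons. Scripts were tested on simulated data. The number of counts limits precision most for Phgdh.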

Additional observations from a re-analysis of the deposited data

Results flagged for a closer look

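Each of these results is a difference between effects that passed its own test, by edgeR's quasi-likelihood test. Between protons and photons at 15 Gy on day 6 the log2 effects differed by -2.66 for Slc7a5, -1.02 for Slc3a2, -1.15 for Shmt2 and 1.01 for Nupr1. Between day 6 and day 2 of the proton series they differed by -1.32 for Shmt2 and 1.84 for Nupr1 at 15 Gy and by 1.02 for Nupr1 at 7 Gy. Of 24 single-library omissions, 10 ended the Nupr1 difference between radiation types and 2 that of Shmt2. The Nupr1 difference between days at 7 Gy was ended by 6 of 24. The differences between radiation types cannot be told apart from the day of the experiment.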

How the results depend on the processing

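Over processing alternatives 1411 of 1480 values kept their side of the threshold and direction, 18 calls were lost and 51 gained, and no called value changed sign; over omissions of single libraries 5756 of 5880 did. A value that passed in neither setting was given no direction and counted as kept. These totals are therefore no measure of how stable the calls are, and lost calls are given beside each result. Numbers of the 10 genes called follow for the processing alternatives that moved them by more than 1.5 times. For omissions of single libraries the range is given wherever the number changed at all. The cause was not tested.

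DESeq2 called 1 at photon 4 Gy and 3 at photon 15 Gy on day 2, 1 at proton 7 Gy on day 2, 2 at proton 4 Gy on day 6, 1 for the day difference at proton 4 Gy and 1 for the radiation difference at 7 Gy on day 6. Library size alone gave 1 at proton 7 Gy on day 2, 1 for photon controls over time and 1 for the day difference at proton 4 Gy. Without the filter there were 1 and 5 at photon 4 and 15 Gy on day 2, 1, 3 and 1 at photon 7 Gy, 15 Gy and 15 against 4 Gy on day 6, 1, 4 and 1 at proton 4 Gy, 7 Gy and 15 against 4 Gy on day 2, 2 at proton 4 Gy on day 6, 1, 1, 2 and 4 for the day differences at photon 15 Gy and proton 4, 7 and 15 Gy, 2 for the radiation difference at 7 Gy on day 6 and 2 for the control difference. With only the 2 groups compared there were 0 and 0 at photon 7 and 15 Gy on day 2, 2 at photon 15 Gy on day 6, 1 at proton 7 Gy on day 2 and 5 at proton 4 Gy on day 6.

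With mouse as a replicate block there were 4 at photon 15 Gy on day 2, 1 and 2 at photon 7 and 15 Gy on day 6, 1 at proton 4 Gy on day 2 and 1 for the day difference at proton 4 Gy; apart from the calls printed beside their results, and 8 against 9 at proton 7 Gy on day 6, the block changed no other call of the 10 genes.

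Leaving out 1 library gave 1 to 2 and 0 to 4 at photon 7 and 15 Gy on day 2, 0 to 1 and 0 to 4 at photon 7 and 15 Gy on day 6, 0 to 4 and 2 to 6 at proton 7 and 15 Gy on day 2, 0 to 2 at proton 4 Gy and 3 to 6 at proton 15 against 4 Gy on day 6, 1 to 3 and 4 to 7 for photon and proton controls over time, 0 to 1, 0 to 1 and 2 to 3 for the day differences at proton 4, 7 and 15 Gy, 2 to 4 for the radiation difference at 15 Gy on day 6, 1 to 4 and 4 to 5 for photon and proton 15 Gy over time and 0 to 1 for the control difference. At 15 Gy of protons on day 6 it gave 7 to 10, and at 7 Gy 7 to 9. Depth limits Phgdh, whose misses do not show that it did not change.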

Other observations

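Regulators of the stress response moved in the unirradiated proton controls between day 2 and day 6. Of 18 tested, 8 rose and 2 fell, where 8.28% of all genes rose and 9.15% fell. Chac1, a glutathione-degrading enzyme, rose by 2.36 ± 0.37 (edgeR adjusted p = 3.62e-05), Gdf15 by 2.15 ± 0.23 (adjusted p = 1.25e-07), Trib3, a pseudokinase, by 2.07 ± 0.25 (adjusted p = 1.17e-06), Atf3 by 2.02 ± 0.21 (adjusted p = 6.43e-08), Atf5 by 1.69 ± 0.28 (adjusted p = 9.59e-05), Ppp1r15a, a phosphatase subunit that acts on eIF2, by 1.23 ± 0.22 (adjusted p = 0.000253), Eif2ak1 by 0.52 ± 0.15 (adjusted p = 0.0126) and Atf4 by 0.53 ± 0.17 (adjusted p = 0.0283). Ddit4, an inhibitor of mTORC1, fell by 1.12 ± 0.17 (adjusted p = 2.6e-05) and Cebpg by 0.54 ± 0.17 (adjusted p = 0.0314). In photon controls 5 rose and none fell, where 6.25% of all genes rose and 8.48% fell: Atf3 by 1.93 ± 0.40 (adjusted p = 0.00173), Eif2ak3 by 0.80 ± 0.19 (adjusted p = 0.00543), Cebpb by 0.49 ± 0.16 (adjusted p = 0.0373), Gdf15 by 2.22 ± 0.29 (adjusted p = 1.4e-05) and Chac1 by 1.37 ± 0.28 (adjusted p = 0.00169). The transporters Slc7a11 (1.20), Slc1a5 (1.22) and Slc6a9 (0.98), which fell after 15 Gy of protons on day 6, rose over time in the proton controls.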
